A study of Homo sapiens with 20 samples.

Results

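A total of 11998 U2AF2 contact sites were found in control cells and in no library of cells overexpressing hnRNPA1, out of 226074 merged U2AF2 sites in all (5.31%). Peaks of at least 6 reads from the 6 U2AF2 iCLIP libraries were merged by chromosome and strand wherever they overlapped by 1 nt. A site was called control-only when 2 or more of the 3 control libraries and none of the 3 overexpression libraries held a peak there. The sites were thus chosen by their U2AF2 peaks and reads, and these values are given as a description, without a test. Sites kept in both conditions (2 or more of 3 libraries in each, 8723 sites, 3.86%) and overexpression-only sites (2 or more of 3 overexpression libraries and no control, 66331 sites, 29.3%) were used for comparison.

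The study mapped RNA contacts of hnRNPA1, U2AF2 and SRSF1 by iCLIP, a method in which protein is crosslinked to RNA by ultraviolet light and the bound RNA is sequenced. All samples were TREX FLP-In 293T cells, a human embryonic kidney line with a single integration site for an inducible transgene. Control cells were selected with blasticidin and zeocin, and the inducible cells, which carry T7-tagged hnRNPA1, were selected with hygromycin in place of zeocin. Selection lasted 3 days, and both kinds of cells then received tetracycline for 24 h, so the controls share the inducer but differ in a selection agent. iCLIP used nuclear extracts, with 3 control and 3 overexpression libraries for U2AF2 and for SRSF1 and 2 and 2 for hnRNPA1. RNA-seq used whole-cell extracts from 2 control and 2 overexpression samples. The labels do not say whether replicates were separate cultures, so p-values measure the spread between these libraries.

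U2AF2 is the large subunit of the U2 auxiliary factor, which binds the polypyrimidine tract upstream of a 3′ splice site and helps recruit the U2 small nuclear ribonucleoprotein (snRNP). hnRNPA1 is an abundant nuclear RNA-binding protein that often represses splice sites, and SRSF1 is an SR protein that often promotes exon inclusion. Box C/D small nucleolar RNAs, named SNORD, guide methylation of ribosomal and other RNAs and are mostly released from the introns of host genes.

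The overexpression libraries of U2AF2 were deeper than the controls, with 2259759 to 3136466 reads in peaks against 692837 to 1145531. Overexpression replicate 3 was called with other gene identifiers and listed peaks from 3 reads. With the minimum of 6 reads it was treated like the others, and 669 control-only sites (5.58%) lay over one of its peaks of 3 to 5 reads. The hnRNPA1 libraries went the other way, with 2480791 and 2940834 reads in control peaks and 540256 and 566544 with overexpression. SRSF1 libraries held 121534 to 168204 reads in controls and 170719 to 321129 with overexpression. Of the kidney-line markers examined, VIM and LIN28B had peaks in 14 of 16 iCLIP libraries and INA in 1, while NEFM and NEFL had none, and PTPRC, CD3E, ALB and GFAP, which mark other cell types, had none.

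The sites with U2AF2 signal in controls alone included 24 that the authors' peak files list under SNORD genes. For 22 of them GENCODE release 29 holds the gene under a SNORD name with its sequence, and the SNORD counts that follow are of these 22. The other two, under SNORD70B and SNORD81, were not in that set. Among those with the highest mean control signal, scaled to the reads in peaks of each library, 3 have the following gene sequences from that release on GRCh38, matched by gene identifier and read 5′ to 3′. Capitals mark every TGATGA, the core of the C box consensus, and every CTGA, the D box, searched on the RNA strand only. The motifs can abut or overlap. Among 278 SNORD genes in that release, 77.3% hold TGATGA and 98.2% hold CTGA.
SNORD36A: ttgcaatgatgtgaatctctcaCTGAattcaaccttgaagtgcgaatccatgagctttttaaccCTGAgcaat
SNORD93: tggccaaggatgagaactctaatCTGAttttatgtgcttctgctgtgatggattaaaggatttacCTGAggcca
SNORD20: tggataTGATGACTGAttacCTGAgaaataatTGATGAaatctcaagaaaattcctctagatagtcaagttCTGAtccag

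SNORD36A lies within RPL7A, which encodes a large ribosomal subunit protein, and its site (hg19 chr9:136217319-136217387, plus strand, 69 nt) held 180, 81 and 170 U2AF2 reads in controls 1 to 3. SNORD93 lies in the non-coding host SNHG26, and its site (hg19 chr7:22896211-22896306, plus strand, 96 nt) held 97, 90 and 126 reads. All 3 overexpression libraries listed no peak at any of these sites, as the rule requires.

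SNORD20 lies within NCL, the gene of the nucleolar protein nucleolin, and its site (hg19 chr2:232321151-232321249, minus strand, 99 nt) held 102, 66 and 140 U2AF2 reads. The 22 SNORD sites were 18 to 109 nt wide with a median of 71.5 nt, and 20 of them were also listed under a second gene, in most cases the host. Counting all snoRNA and scaRNA genes, 39 control-only sites (0.325%) were listed under one, against 87 kept sites (0.997%) and 2 overexpression-only sites (0.00302%).

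All 22 SNORD sites overlapped an SRSF1 peak in at least 1 library, and 18 overlapped an hnRNPA1 peak in both control libraries. The SRSF1 share was 21.4% of control-only, 74.6% of kept and 8.70% of all U2AF2 sites. For hnRNPA1 in both controls these shares were 22.5%, 78.4% and 10.4%. Overlap at kept sites listed under snoRNA genes was not examined here. A test of SRSF1 signal per site was added after the data had been seen. It used the 1292 U2AF2 sites with an SRSF1 peak in all 6 libraries, of which 12.9% were called, 7.89% higher and 5.03% lower, at an adjusted p under 0.05 (limma, Benjamini-Hochberg over all 1292 sites). Of the 22 SNORD sites 14 qualified, of which 5 were higher with overexpression and 0 were lower. SNORD70B, outside the 22, listed with NOP58 and named after its values were seen, also qualified. It held 20.8, 15.7 and 6.83 normalised reads in controls and 53.6, 72.7 and 64.6 with overexpression, without overlap (log2 difference 2.18 ± 0.41, SE, adjusted p = 0.0110, limma). That call was lost without SRSF1 overexpression replicate 2 (adjusted p = 0.0502).

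At SNORD70, within the gene of the snoRNP core protein NOP58, the controls held 15.6, 18.9 and 39.9 normalised reads and the overexpression libraries 72.8, 94.2 and 90.7, without overlap, a log2 difference of 1.86 ± 0.39 (SE, adjusted p = 0.0161, limma). SNORD45B, SNORD121B and SNORD111B were also called, with log2 differences of 1.10, 1.31 and 1.63.

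At SNORD36A the SRSF1 groups overlapped, with 85.1, 128 and 94.5 normalised reads in controls and 55.5, 49.2 and 106 with overexpression, and the difference did not pass the test (adjusted p = 0.318, limma). The SNORD70 call was lost without SRSF1 control replicate 1, overexpression replicate 2 or overexpression replicate 3 (adjusted p = 0.0616 to 0.0673). The 5 calls became 1 when total reads in peaks set the scale, 2 when a peak was required in at least 50% of libraries, and 2 with the replicate number as a block. They became 1 without SRSF1 overexpression replicate 1 and 0 without SRSF1 control replicate 1, overexpression replicate 2 or overexpression replicate 3. For hnRNPA1, 8 SNORD sites had a peak in all 4 libraries and 1, SNORD20, was called, with 47.8 and 34.0 normalised reads in controls and 91.8 and 155 with overexpression (log2 difference 1.54 ± 0.35, adjusted p = 0.0305, limma). Without hnRNPA1 overexpression replicate 2 none of these sites was higher and 2 were lower, and without overexpression replicate 1 there were 3 higher and 1 lower. On the scale of total reads 3 were higher and 0 lower, and with a peak required in at least 50% of libraries none was called.

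**Figure D1:**
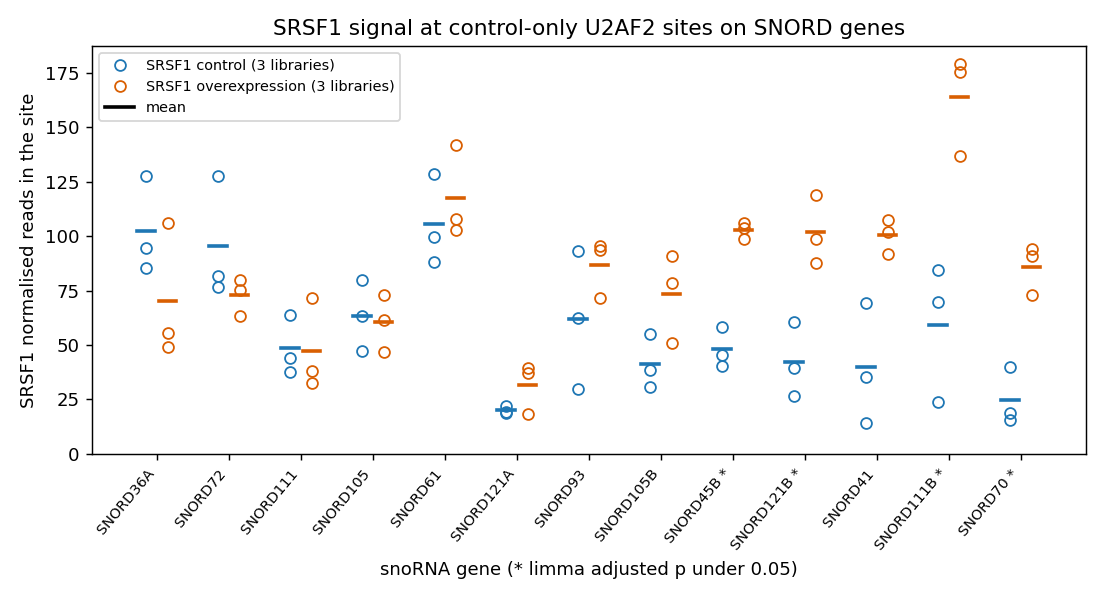
SRSF1 normalised reads (y axis) at 13 of the 14 control-only U2AF2 sites on sequence-matched SNORD genes with an SRSF1 peak in all 6 libraries (x axis), each circle a library and each bar a group mean. The 4 starred sites passed limma's test. They have all 3 overexpression libraries above all 3 controls, as does SNORD41, which was not called (adjusted p = 0.0759, limma). The share of such sites over all sites tested was not computed.

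Most control-only sites were ordinary intragenic peaks of moderate height. A total of 3657 (30.5%) had a peak in all 3 control libraries, while 3673, 2791 and 1877 had one only in controls 2 and 3, 1 and 3, and 1 and 2. Among sites with a peak, the median was 13, 13 and 18 reads in controls 1 to 3, against 16, 16 and 22 in kept sites. Control-only sites held 30.1%, 30.7% and 27.3% of all U2AF2 reads in control peaks. Of these 208420, 237833 and 312608 reads, the sites in XIST alone held 37319, 38807 and 31475. Their median width was 96 nt (quartiles 62 and 159), against 135 nt for kept and 68 nt for overexpression-only sites. The widest reached 3328 nt, and 239 (1.99%) exceeded 500 nt.

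At the lower edge of the rule, 283 control-only sites had exactly 6 reads in 2 controls and no peak in the other. Just outside it, 1744 sites had a peak in 2 or more controls and in exactly 1 overexpression library, where the median was 7 reads in overexpression replicate 1 and 8 in replicates 2 and 3. A further 50192 sites had a peak in 1 control and none with overexpression. Most sites lay in genes still contacted with overexpression: 99.2% of control-only sites lay in a gene with a U2AF2 peak in some overexpression library. That share counts peaks of 3 to 5 reads in overexpression replicate 3, which also lay over 669 of the sites themselves. With peaks of at least 6 reads in that replicate alone it was 94.2%. The share over all U2AF2 sites was not computed. Fewer contacts and less RNA to contact cannot be told apart at a single site in these data.

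Among the 15 control-only sites with most control signal, taken at 1 per gene, the highest lay in XIST, the long non-coding RNA that silences an X chromosome. That site (hg19 chrX:73066927-73066962, minus strand, 36 nt) held 1034, 759 and 927 U2AF2 reads in controls. In the same place hnRNPA1 held 1716 and 1384 reads in controls and 515 and 1219 with overexpression. SRSF1 had a peak there in 1 of 3 controls, with 93 reads, and in all 3 overexpression libraries, with 188, 229 and 238.

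A site in MALAT1 (hg19 chr11:65271412-65271497, plus strand, 86 nt), a nuclear-speckle long non-coding RNA, held 475, 567 and 676 U2AF2 reads. It was contacted by hnRNPA1 at like raw reads in each library, 572 and 652 in controls and 598 and 617 with overexpression. The overexpression libraries held far fewer hnRNPA1 reads in peaks, so these raw reads are a larger share of their reads. SRSF1 had no peak there in any control and held 63, 168 and 97 reads with overexpression. The groups of SRSF1 libraries did not overlap at this site.

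In HNRNPH1, which encodes a splicing regulator that binds G-rich RNA, a site of 165 nt (hg19 chr5:179045995-179046159, minus strand) held 240, 317 and 372 U2AF2 reads. hnRNPA1 held 267 and 215 raw reads there in controls and 52 and 63 with overexpression, not scaled to the lower depth of the overexpression libraries. SRSF1 held 19, 15 and 31 in controls and 0, 48 and 34 with overexpression, so its groups overlapped.

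HSP90AA1, the inducible HSP90 chaperone, held 176, 184 and 264 U2AF2 reads over a site of 973 nt. There SRSF1 gave 13, 195 and 9 reads in controls and 133, 274 and 247 with overexpression, with control 2 inside the range of the overexpression libraries. SLC19A1, the reduced folate carrier, held 115, 167 and 326 U2AF2 reads over 1858 nt. hnRNPA1 gave 243 and 126 raw reads at that site in controls and 6 and 15 with overexpression, and SRSF1 had no peak in any library.

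At 2 of these strongest sites the other proteins had no peak. A site in NEAT1 (hg19 chr11:65199699-65199780, plus strand), the scaffold RNA of paraspeckles, held 168, 216 and 212 U2AF2 reads, and neither hnRNPA1 nor SRSF1 had a peak there in any of their 10 libraries. The same held for a site of 634 nt listed under BIVM and ERCC5, a DNA repair nuclease gene, with 150, 207 and 244 reads.

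**Figure D2:**
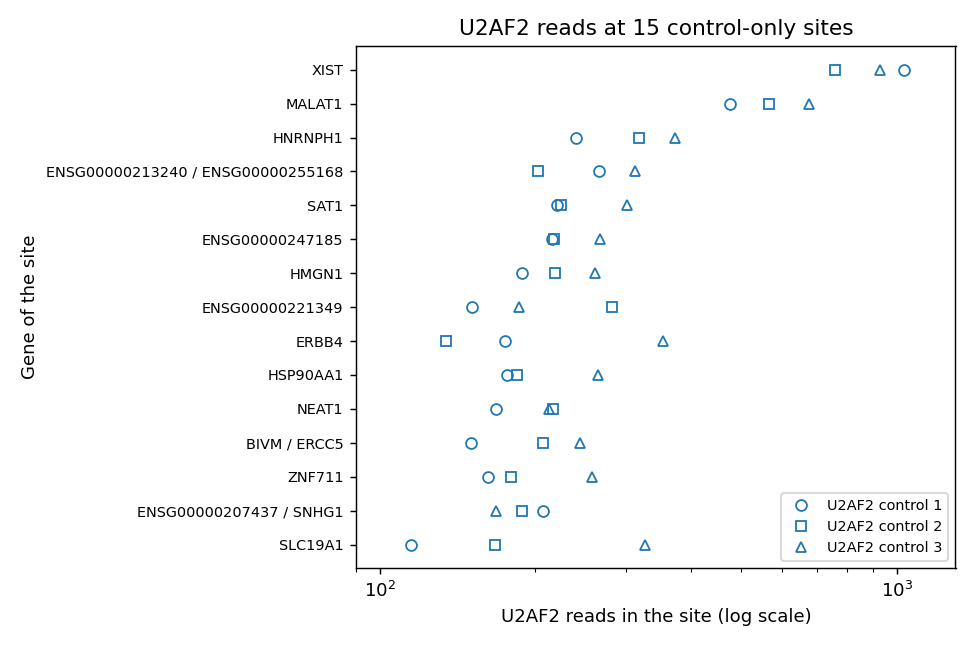
U2AF2 reads in each control library (x axis, log scale) at the 15 control-only sites with most control signal, at 1 per gene (y axis). The overexpression libraries listed no peak at these sites, and XIST, with 759 to 1034 reads, is the highest.

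Control-only sites were spread over 4717 genes, 28.5% of the 16542 genes with any U2AF2 site. A single site was found in 2399 of these genes, and the 584 genes with 5 or more held 5514 sites (46.0%). Of the 4717 genes, 2002 (42.4%) also held a kept site and 4182 (88.7%) also held an overexpression-only site. Sites clustered in part: 36.7% lay within 1000 nt of another control-only site, and 19.4% lay within 1000 nt of a kept site, against 8.73% of overexpression-only sites. By gene type, 90.6% were listed under protein-coding genes and 4.06% under long non-coding genes, against 84.3% and 10.0% of kept sites. Exon, intron and UTR positions were not analysed here.

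XIST held the most, with 120 control-only sites among its 312 merged sites. Its U2AF2 reads over all peaks were 99018, 105533 and 96723 in controls and 40070, 45774 and 0 with overexpression. Overexpression replicate 3 listed no peak under XIST, so there the rule rests on the other overexpression libraries. Restricting the sites to genes with a peak of at least 6 reads in that replicate left 11301 (94.2%).

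The axon-guidance pair SLIT2, a secreted ligand, and ROBO1, its receptor, came next with 81 and 79 control-only sites. ERBB4, a neuregulin receptor tyrosine kinase, held 73 and NKAIN2 held 51. CPSF6, a subunit of the cleavage factor that sets poly(A) site choice, held 50 control-only sites against 3 kept sites among 121 in all. LRP1B, an LDL receptor family protein, held 49, PRKG1, a cGMP-dependent kinase, 47, and the chromatin remodeller HELLS and the phosphodiesterase PDE4D 45 each. SLIT2 had 580 U2AF2 sites in all and ERBB4 607.

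Genes of the splicing machinery often held control-only sites. Among SR proteins and their cofactors 31 of 34 genes with a U2AF2 site held at least 1 (91.2%), and among hnRNP genes 22 of 29 (75.9%). These lists were chosen with earlier results of these data known, and the share of all genes, 28.5%, takes no account of how many sites a gene has. Counted by site, 11.9% of the U2AF2 sites in the SR list and 14.2% in the hnRNP list were control-only, against 5.30% over all genes. Kept sites were also a larger share there than over all genes. They numbered 105 of 1416 in the SR list and 93 of 1208 in the hnRNP list, against 10022 of 238552. The high share is thus not particular to control-only sites.

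In the hnRNP list HNRNPU, which binds nuclear RNA and chromatin, held 34 control-only sites with 1448, 1737 and 2120 reads in controls, and PTBP2, the neural homologue of the polypyrimidine-tract repressor PTBP1, held 27. HNRNPA2B1 and HNRNPR held 15 each. In the SR list SREK1 held 15, PNISR 14, the SR protein kinase SRPK1 13 and SRSF11 12. SRPK1 had no kept site among its 119 U2AF2 sites.

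Of the 3′ splice site and U2 snRNP genes, 15 of 26 (57.7%) held a control-only site, as 12.6% of their sites were. RBM39, a U2AF2-related splicing factor, held 25, and U2AF1, the small U2AF subunit that reads the AG at the intron end, held 12, as did U2SURP. DDX39B, an RNA helicase that binds U2AF2, held 11.

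Nuclear long non-coding RNAs held 237 control-only sites in 8 of 13 genes (19.6% of their sites), 120 of them in XIST. NEAT1 held 32, DLEU2 28 and MALAT1 25. Of the snoRNA hosts 16 of 26 (61.5%, and 11.6% of sites) held at least 1, with 7 in TAF1D, 5 in SNHG1, 5 in EIF4A2 and 4 in GAS5.

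In chromatin regulators the gene and site shares went opposite ways: 50 of 65 genes (76.9%) held a control-only site, above the share of all genes, but 4.86% of their U2AF2 sites were control-only, below the 5.30% over all genes. The genes with most were EZH2, the catalytic subunit of Polycomb complex 2, with 18 sites, and ARID1B, a BAF remodeller subunit, with 15. Ribosomal protein genes had 47 of 79 (59.5%, and 10.4% of sites), led by RPS24, RPL5 and RPL36A with 5 sites each. Cell cycle genes had 34 of 58 (58.6%, and 6.42% of sites), with 25 sites in the condensin subunit SMC4 and 10 in NCAPG, and translation factors had 22 of 42 (52.4%, and 5.74% of sites), with 12 in EIF3E. Oxidative phosphorylation genes had 22 of 58 (37.9%, and 7.26% of sites). The ZNF genes, mostly zinc finger factors, had 78 of 415 (18.8%, and 4.06% of sites), with 36 sites in ZNF207 and 26 in ZNF711. They were listed without antisense or numbered pseudogene names, a choice made after values were seen. Kept sites outnumbered control-only sites in ZNF genes (243 against 197), ribosomal protein genes (87 against 80) and snoRNA hosts (63 against 40). In the other lists they were fewer.

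**Figure D3:**
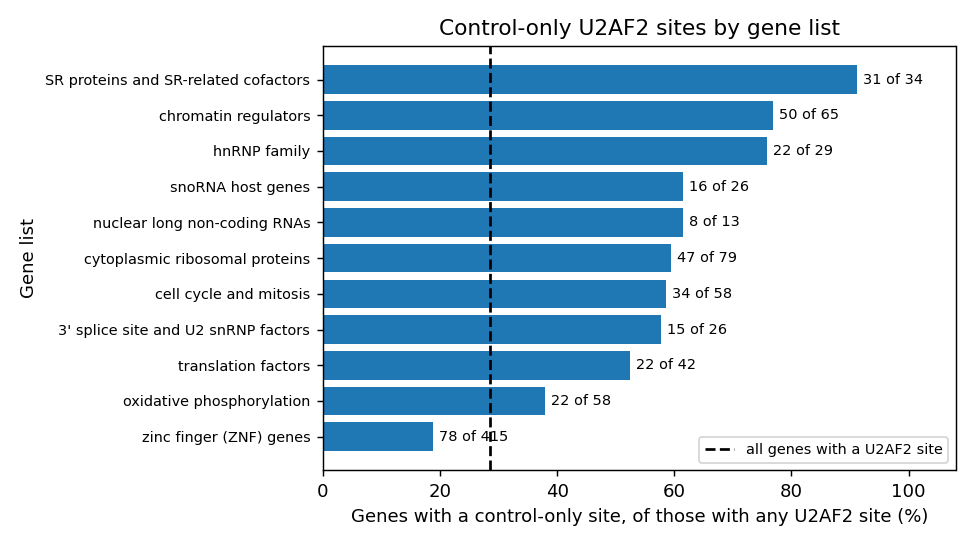
Share of genes holding a control-only site among the genes of each list with any U2AF2 site (x axis, percent), with the counts beside each bar and the share of all 16542 genes, 28.5%, as a dashed line. SR genes are highest at 91.2% and ZNF genes lowest at 18.8%.

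The hnRNPA1 and SRSF1 peaks were not used to choose the sites, so their overlap with them can be compared between libraries. hnRNPA1 peaks covered at least 1 nt of 31.7% and 28.5% of control-only sites in the 2 control libraries and of 12.4% and 11.7% in the 2 overexpression libraries. The groups did not overlap. An exact two-sided permutation test of 2 against 2 libraries cannot reach 0.05, and this difference gave the smallest p it allows. The overexpression libraries of hnRNPA1 held fewer reads in peaks, so depth and condition cannot be told apart.

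To set depth aside in part, each share was divided by the share of kept sites covered in the same library. That ratio was 0.381 and 0.349 in controls and 0.555 and 0.377 with overexpression, a difference in means of 0.102 (exact permutation p = 0.667, two-sided). The groups overlapped, and so few libraries cannot place the difference within or outside their spread. Divided by the share of all U2AF2 sites, the ratio was 2.05 and 2.01 in controls and 3.88 and 3.10 with overexpression. Control-only sites held 8.01% and 7.81% of hnRNPA1 reads in peaks in controls and 9.98% and 9.73% with overexpression. Without XIST these shares were 6.75% and 6.42% against 7.16% and 6.55%, which overlapped. The measures thus differ in direction from the plain share. Kept sites were covered at 82.4% ± 1.05 in controls and 26.7% ± 6.17 with overexpression (SD, n = 2 each), and overexpression-only sites at 12.7% ± 0.895 and 1.03% ± 0.309.

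SRSF1 peaks covered 6.90%, 6.49% and 6.93% of control-only sites in controls and 5.55%, 11.3% and 9.03% with overexpression. The lowest and the 2 highest values were all overexpression libraries, and the exact two-sided permutation test gave p = 0.4 (smallest possible 0.1). The ratio to kept sites was 0.213 ± 0.0692 in controls and 0.177 ± 0.0422 with overexpression (SD, n = 3 each), a difference of -0.0366 (exact permutation p = 0.7). Without SRSF1 control replicate 2, the shallowest library, the difference was 0.00323. Adjusted over the 18 overlap measures compared between conditions, no p fell below 0.6.

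In every library control-only sites were covered less often than kept sites and more often than overexpression-only sites. For SRSF1 the gap to kept sites was -33.3 percentage points on average, lower in 6 of 6 libraries, and the gap to overexpression-only sites was 6.40 points, higher in 6 of 6 (exact sign-flip permutation p = 0.0312 each, adjusted over 4 comparisons 0.0625). For hnRNPA1 the gaps were -33.5 points, lower in 4 of 4, and 14.2 points, higher in 4 of 4 (exact permutation p = 0.125, the smallest 4 libraries can give). None of the 4 comparisons passed 0.05 after adjustment. These tests pooled control and overexpression libraries over the same sites, so they measure agreement between libraries only. The classes were set by how many U2AF2 libraries had a peak, and kept sites need more of them. No conclusion about the classes is drawn from these p-values. The classes also differed in width and reads: among control-only sites over 200 nt 53.4% overlapped an hnRNPA1 control peak, against 32.8% of those of up to 60 nt, and in kept sites of up to 60 nt the share was 81.1%.

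Over all libraries, 39.5% of control-only sites overlapped an hnRNPA1 peak somewhere, 21.4% an SRSF1 peak, 14.1% both and 53.1% neither. Neither protein was found at 8.45% of kept and 79.8% of overexpression-only sites. SRSF1 peaks in 2 or more overexpression libraries and no control were found at 300 control-only sites (2.50%), and the reverse at 193 (1.61%). Over all U2AF2 sites the shares were 0.986% and 0.469%, in kept sites 10.3% and 2.52%, and in overexpression-only sites 0.481% and 0.274%. The SRSF1 overexpression libraries were also the deeper ones, and the part of depth in these counts was not tested.

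**Figure D4:**
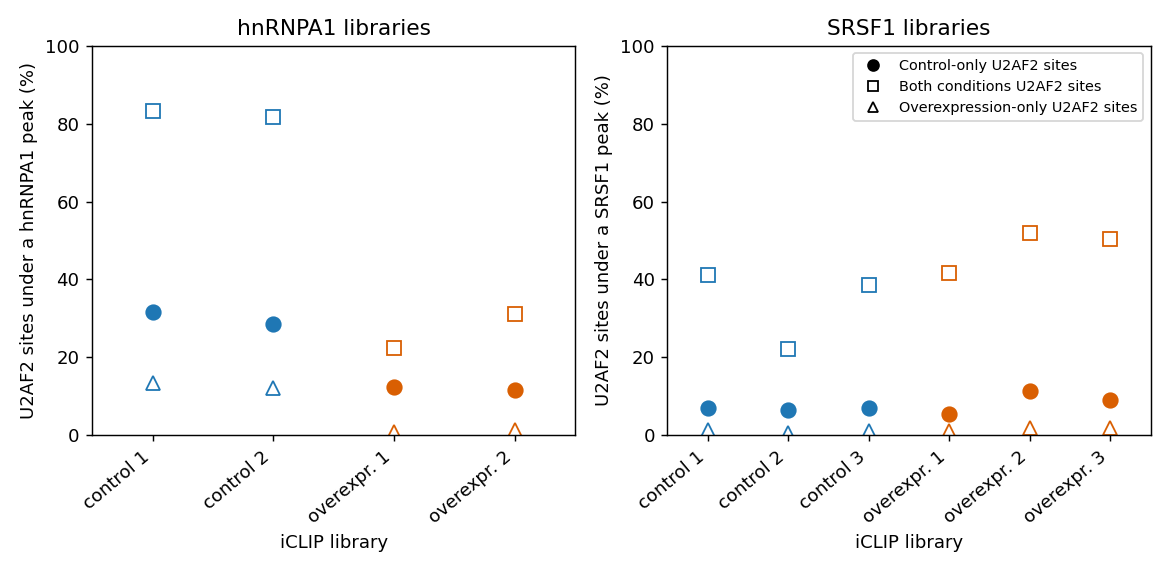
Share of U2AF2 sites under a peak of hnRNPA1 (left, 4 libraries) or SRSF1 (right, 6 libraries), in percent on the y axis and 1 library per column. Filled circles are control-only sites, open squares sites kept in both conditions and open triangles overexpression-only sites; blue is control and orange overexpression, and the circles lie between the other 2 classes in each library.

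The level of hnRNPA1 signal at control-only sites was tested at the 802 sites (of 11998) with an hnRNPA1 peak in all 4 libraries, a test also added after the data had been seen. Of these 130 were called, 100 higher and 30 lower with overexpression. Of all 3690 U2AF2 sites tested 23.1% were called, 9.46% higher and 13.7% lower (limma, adjusted p under 0.05). The filter left out sites without a peak in the shallower overexpression libraries. An hnRNPA1 peak in both controls and no overexpression library was found at 1271 control-only sites (10.6%), and the reverse at 42 (0.350%). Over all U2AF2 sites the shares were 6.79% and 0.0964%, and in kept sites 43.3% and 0.172%. The part of depth in these counts was not tested. The median log2 difference was 0.25 in control-only sites, -0.65 in the 1374 kept sites and 0.02 over all sites, and the difference between classes was not tested. These values are relative to the median site: with total reads in peaks as the scale, the median of all sites was 0.97 and 488 control-only sites were higher and 5 lower. Without hnRNPA1 overexpression replicate 1 the count was 271.

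A site in SLIT2 of 338 nt (hg19 chr4:20281280-20281617, plus strand) held 25.9 and 17.0 normalised hnRNPA1 reads in controls and 149 and 128 with overexpression, well apart (log2 difference 2.66 ± 0.31, adjusted p = 0.0103, limma). At the HNRNPU locus 3 of the 5 control-only sites with most hnRNPA1 reads outside XIST were found, each also listed under a second gene identifier. The strongest held 1167 and 1107 raw reads in controls and 496 and 291 with overexpression. These raw reads are not scaled to depth and do not show a direction. The libraries held 2940834 and 2480791 reads in peaks in controls and 540256 and 566544 with overexpression. The other 2 of the 5 were in MALAT1. At the wide SLC19A1 site described above the log2 difference was -2.36 ± 0.48 (adjusted p = 0.0223, limma), with 123.6 and 71.4 normalised reads in controls and 11.5 and 26.4 with overexpression. Its lower raw value, 6 reads, is the peak minimum, and the call was lost when a peak was required in at least 50% of libraries (adjusted p = 0.0533).

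SRSF1 signal could be tested at 146 control-only sites, of which 27 were called, 17 higher and 10 lower, beside 7.89% higher and 5.03% lower over all sites tested. On the scale of total reads the split turned to 8 higher and 15 lower. The count was 11 without SRSF1 control replicate 1, 44 without control replicate 2, 9 without overexpression replicate 2 and 8 without overexpression replicate 3. A site of 266 nt in HSP90B1, the HSP90 paralogue of the endoplasmic reticulum, held 26.0, 40.9 and 33.0 normalised SRSF1 reads in controls and 110, 125 and 122 with overexpression, well apart (log2 difference 1.83 ± 0.29, adjusted p = 0.00628, limma).

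Sites with less SRSF1 signal included one of 55 nt in SRPK1, the kinase that phosphorylates SR proteins. It held 57.1, 120 and 68.3 normalised reads in controls and 6.7, 6.2 and 10.8 with overexpression, again without overlap (log2 difference -3.18 ± 0.37, adjusted p = 0.00292, limma). Raw SRSF1 reads with overexpression were 7, 9 and 14, the lower ones near the 6-read peak minimum. U2AF2 had no peak in control 1 at this site and 24 and 29 reads in controls 2 and 3. A site in SAT1, the rate-limiting enzyme of polyamine breakdown, held 95.5, 75.6 and 95.7 normalised SRSF1 reads in controls and 33.5, 33.2 and 35.4 with overexpression (log2 difference -1.35 ± 0.28, adjusted p = 0.0161, limma). This call was lost without SRSF1 control replicate 1 or any single overexpression replicate (adjusted p = 0.065 to 0.0756), and SAT1 as a whole did not pass the test.

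Summed per gene, SRSF1 reads in peaks were tested in 1057 genes with a control-only site, those with an SRSF1 peak in all 6 libraries. Of these 72 were called (35 higher and 37 lower), beside 6.78% of the 1845 genes tested (4.17% higher and 2.6% lower). With total reads in peaks as the scale, which put the median gene at -0.20 in place of -0.02, 30 were higher and 81 lower. The count depended on single libraries: 10 without SRSF1 control replicate 1, 127 without control replicate 2, 47 without control replicate 3, 17 without overexpression replicate 2 and 23 without overexpression replicate 3.

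LRP1B held 17.8, 10.0 and 7.57 normalised SRSF1 reads in controls and 329, 971 and 649 with overexpression. The groups were far apart, with a log2 difference of 5.62 ± 0.46 (adjusted p = 0.000126, limma). The raw control reads of LRP1B were 19, 6 and 7, at or near the 6-read peak minimum, so the size of the difference depends on that minimum. BIRC6 was also near it in controls, with 13.1, 10.0 and 6.49 normalised reads. DST, a cytoskeletal linker, also rose, by 2.76, as did BIRC6, an inhibitor of apoptosis proteins, by 3.10, and ERBB4, by 2.03. BIRC6 and ERBB4 lost the call without SRSF1 control replicate 1 (adjusted p = 0.0531 for both) or without overexpression replicate 2 (0.0518 for both).

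Among snoRNA hosts GAS5 rose from 487 ± 131 to 1318 ± 53.1 normalised SRSF1 reads (SD, n = 3 each), a log2 difference of 1.47. EIF4A2 rose by 1.53, a call lost without SRSF1 control replicate 1 (adjusted p = 0.0552) or overexpression replicate 2 (0.0518), and its number of peaks moved the other way, by -0.90 on the log2 scale, short of the threshold. NOP58 rose by 1.66. MALAT1, with 4326, 4428 and 4207 normalised reads in controls and 7645, 7045 and 6769 with overexpression, rose by 0.73, although quantile normalization put the difference at 0. HNRNPH1 rose by 0.88 and NEAT1 by 0.87, and both calls were lost without SRSF1 control replicate 1 (adjusted p = 0.0664 and 0.0639), among other libraries.

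SRSF1 signal fell in SRPK1, from 111, 223 and 115 normalised reads to 14.2, 28.2 and 25.6, with no overlap (log2 difference -2.65 ± 0.42, adjusted p = 0.00778, limma). It also fell in U2AF1, from 184, 260 and 102 to 32.9, 25.6 and 38.4 (log2 difference -2.38 ± 0.41, adjusted p = 0.00911, limma), a call lost without SRSF1 control replicate 1 (adjusted p = 0.0534). PTGES3, an HSP90 cochaperone, and ZNF529 fell by 3.48 and 3.11 on the log2 scale. In SRSF1 overexpression replicate 2 each held 3.84 normalised reads, at the 6-read peak minimum. Both lost the call without SRSF1 control replicate 1 (adjusted p = 0.0787 and 0.0534).

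For hnRNPA1, 3304 genes with a control-only site had a peak in all 4 libraries, and 635 were called (365 higher and 270 lower), beside 17.8% of the 5738 genes tested (9.5% higher and 8.33% lower). On the scale of total reads, which put the median gene at -0.16 in place of 0.01, the split was 272 higher to 373 lower. The count was 355 without hnRNPA1 control replicate 1, 383 without control replicate 2 and 994 without overexpression replicate 2.

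The genes richest in control-only sites did not move one way. SLIT2 went from 9811 and 9551 normalised hnRNPA1 reads in controls to 37949 and 39125 with overexpression, 2 tight and distant groups (log2 difference 1.99 ± 0.06, adjusted p = 4.69e-05, limma). LRP1B rose by 2.13. Among genes with fewer sites, NEAT1 (32 sites) rose by 2.04 and HNRNPA2B1 (15) by 1.23. PRC1, a microtubule bundler of the mitotic spindle with 3 sites, rose by 1.86. XIST rose by 1.01 and MALAT1 by 1.16, and both also rose on the scale of total reads, but under quantile normalization XIST was at 0 and MALAT1 at -0.37. ERBB4 rose by 0.51 but was at -0.72 under quantile normalization, and its call was lost without hnRNPA1 control replicate 2 (adjusted p = 0.0765).

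CPSF6 went from 1518 and 1478 normalised hnRNPA1 reads to 865 and 760, without overlap, and so fell by 0.89 on the log2 scale (adjusted p = 0.0153, limma). RUNX1, a transcription factor with a single control-only site, went from 321 and 307 to 16.5 and 22.3, a log2 difference of -3.96 ± 0.36 (adjusted p = 0.0033, limma). The hnRNPA1 signal of several RNA regulators also differed. HNRNPH1 rose by 0.74 and PNISR, an SR-related protein, by 0.73, while SON fell by 0.71 and U2AF1 by 0.79 on the log2 scale. The U2AF1 call was lost without hnRNPA1 control replicate 1 (adjusted p = 0.14) or overexpression replicate 1 (0.0987). NCAPG, a condensin subunit, rose by 1.32 and LRRTM4, a synaptic adhesion protein, by 3.11. RPL5, a large ribosomal subunit protein, fell by 1.15, a call lost without either control (adjusted p = 0.0751 and 0.0664).

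HELLS, PDE4D, NKAIN2, PRKG1 and ROBO1 had log2 differences of -0.17, 0.18, -0.11, 0.22 and 0.26, and none passed the test.

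The authors' deposited RNA-seq table lists 251 skipped-exon events from comparisons of control with overexpression libraries, with exon inclusion as a fraction. By its name the table was filtered on a minimum inclusion difference and a minimum Bayes factor, so its events were already selected for a difference. Gaps between control and overexpression in single events are thus given as a description. A control-only site lay in the span of 67 of the 251 events, on either strand since the table gives no strand. Inclusion was lower with overexpression in 41 of the 67 (61.2%) and higher in 26, beside 61.8% lower over all 251 events. In 31 events all 4 control and overexpression pairs had the same sign, 26 lower and 5 higher, beside 71 lower and 25 higher over all events. Spans with a control-only site were longer, at a median of 10331 nt against 5999 nt over all events. Among the 17 events with 3 or more sites, 14 were lower and 3 higher. These 17 include 2 MDM2 events that hold the same 8 sites, with mean inclusion differences of -0.26 and 0.24. Among events with a kept site in the span, 45 of 61 were lower (73.8%). Of those with the same sign in all 4 pairs, 33 were lower and 4 higher. Lower inclusion was thus not particular to events with control-only sites.

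The spans held 138 different control-only sites, of which 58.7% overlapped an hnRNPA1 control peak and 32.6% an SRSF1 peak in some library. FUBP1, a single-stranded nucleic acid-binding regulator of MYC and of splicing, had 13 in 1 event of 2522 nt (hg19 chr1:78409740-78412261), with 315, 403 and 510 U2AF2 reads in controls in all. Of these 13 sites 11 overlapped an hnRNPA1 control peak and none an SRSF1 peak. Inclusion of its exon was 0.89 in control 2, with no value for control 1, and 0.43 and 0.69 with overexpression.

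SON, a scaffold protein of nuclear speckles, had 8 sites in its event (hg19 chr21:34941277-34945761), with 450, 464 and 494 reads in all. Inclusion was 0.58 and 0.23 in controls and 0.03 and 0.06 with overexpression, so the groups did not overlap although the controls differed from each other. RBM39 had 4 sites in its event with 345, 379 and 406 reads, and inclusion of 0.72 and 0.44 in controls and 0.15 in both overexpression libraries. An exact permutation test of 2 against 2 libraries cannot reach 0.05, so none was run per event.

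Several other events with control-only sites lay in genes of splicing and RNA regulators, and were named because they hold such sites. SRSF6, an SR protein, had inclusion of 0.74 and 0.61 in controls and 0.25 and 0.24 with overexpression, with 2 sites. TRA2A, an SR-like splicing activator, had 0.25 and 0.46 against 0.12 and 0.14, with 4 sites. SRRM1, a splicing coactivator, had 0.15 and 0.38 against 0.09 and 0.03, with 3 sites, and NOP58 had 0.45 and 0.55 against 0.10 and 0.09, with 2 sites. In each of these 4 every overexpression library was below both controls.

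DHX9, an RNA helicase, had 6 sites and inclusion of 0.40 in control 2 against 0.20 and 0.05. The opposite direction was seen in CLK3, a kinase of SR proteins, with 2 sites and inclusion of 0.63 and 0.55 in controls and 0.91 and 0.81 with overexpression. CCNH, the cyclin of the CDK-activating kinase, went from 0.49 in control 2 to 0.91 and 0.94, with 2 sites.

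**Figure D5:**
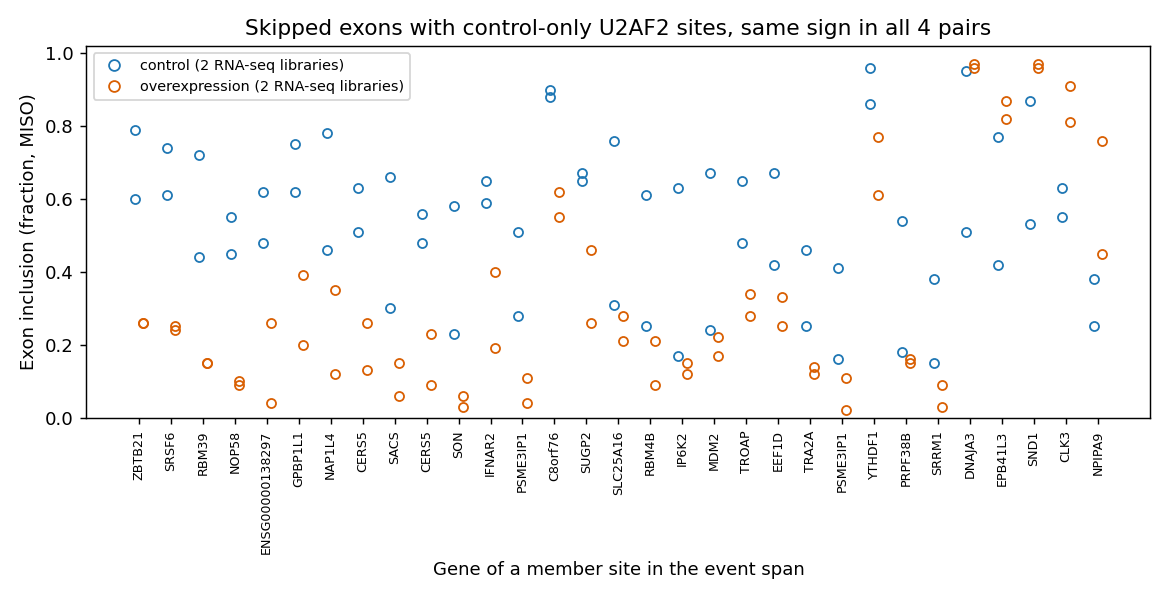
Exon inclusion (y axis, fraction from the authors' table) in 2 control (blue) and 2 overexpression (orange) RNA-seq libraries for the 31 skipped-exon events with a control-only U2AF2 site in the span and the same sign in all 4 pairs (x axis, gene of a site). Inclusion is lower with overexpression in 26 events and higher in 5, and in many the 2 controls differ from each other.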

How the data were processed

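The deposited iCLIP peaks were called by the authors with CLIPper (pre-mRNA mode), library by library, after TopHat alignment to hg19 and removal of repeat reads, per the file headers; per the submitters' processing notes Bowtie2 was also used, and versions are not given in the sources used here. The deposited peak name ends in the number of reads in the peak. Exon inclusion is a fraction, and the Bayes factor a ratio, in the authors' deposited MISO table. The Bayes factor was not analysed further here.

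Sites, overlaps and exact permutation tests were computed with Python 3.11.15, numpy 2.4.6, pandas 2.3.3 and scipy 1.17.1, and figures drawn with matplotlib 3.10.9. Reads in peaks per gene or site were divided by median-of-ratios size factors over features with a peak in every library, and log2(value + 1) was fitted with limma 3.58.1 (trend) in R 4.3.3, tested on simulated data beforehand. Differences are overexpression minus control, two-sided p-values were adjusted over all features tested (Benjamini-Hochberg), and the threshold was 0.05. The MISO table gives no strand, so the same-strand condition planned for exon events was not applied. A peak spanning 2 sites counted in both. Replicate libraries shared at most 0.0693% of their peaks in interval and reads, and each counted as 1 sample.

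Same-numbered libraries of a protein had correlated deviations of -0.0135 to 0.0148, so the numbers do not pair them. Gene symbols were matched by identifier for 4421 of 4717 genes (93.7%). The members and lists were chosen with earlier results of these data known. Named were the 15 strongest sites at 1 per gene, the 10 genes with most sites, up to 4 genes of each list, genes of exon events, called genes of largest change, and the 5 sites with most hnRNPA1 or SRSF1 reads. SNORD sites and the sites and genes given for the tests per site were chosen after their values were seen. Sequence at the sites was not analysed here, since no hg19 genome was used. One SNORD site and one marker are counted where totals are given but are not reported here.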

Additional observations from a re-analysis of the deposited data

How the results depend on the processing

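The number of control-only sites was 7888 with a minimum of 10 reads and 3657 when all 3 controls were required, and ranged from 5776 to 12975 when each U2AF2 library was left out. The lowest values came from leaving out a control, which then requires a peak in both others. Exon events with a control-only site numbered 27 when all 3 controls were required, 31 with the same sign in all 4 pairs, and 40 to 72 when each library was left out. The hnRNPA1 overlap ratio kept its sign (differences of 0.0123 to 0.191 when each library was left out), and that of SRSF1 ranged from -0.0594 to 0.00323, changing sign without SRSF1 control replicate 2.

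Of genes with control-only sites, 175 were called for SRSF1 with a peak in at least 50% of libraries, 13 with no filter, 111 with total reads as the scale, 15 by the number of peaks, and 10 to 127 when each library was left out. For hnRNPA1 the calls numbered 1100, 976 and 210 under the looser filter, no filter and number of peaks, 324 when all 3 controls were required, and 355 to 994 when each library was left out. Per site, SRSF1 calls numbered 145 under the looser filter and 8 to 44 when each library was left out, and hnRNPA1 calls numbered 1420 under the looser filter, 493 with total reads as the scale, and 105 to 271. The looser filters test more features near the 6-read minimum. Among the named genes, SRSF1 signal on EIF4A2 was -0.90 by the number of peaks, and hnRNPA1 signal on ERBB4 and MALAT1 was -0.72 and -0.37 under quantile normalization. The cause was not tested.

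With the replicate number as a block, which does not pair these libraries, SRSF1 calls numbered 66 by gene and 23 by site, and hnRNPA1 calls 690 by gene and 99 by site; NEAT1 lost its SRSF1 call (adjusted p = 0.0505, limma). Sites within 200 nt of the skipped exon were not examined, because the table gives only the span of each event. Alternatives on the tests per site, and the restriction to genes with a peak in U2AF2 overexpression replicate 3, were chosen after seeing the data.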
